A study of Sus scrofa with 24 samples.

Results

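Circular RNAs (circRNAs) of zinc finger genes were followed in the spleen of Meishan pigs from 1 to 180 days after birth. A circRNA is a closed RNA made when the end of an exon is joined back to the start of the same or an earlier exon, and each was counted by the reads that cross this back-splice junction. The members are the circRNAs whose host gene has a symbol that begins with ZNF, ZFP, ZBTB, ZSCAN, ZKSCAN, ZMYM or ZFYVE, without ZNF644. The host is the Sscrofa11.1 RefSeq gene of the same strand with exon ends within 1 base of both back-splice ends. This rule took 48 of the 3000 circRNAs in the deposited table, from 33 of 1675 host genes. They were 28 circRNAs of ZNF genes, 8 of ZBTB, 8 of ZMYM, 2 of ZFYVE, 1 of ZKSCAN (ZKSCAN1) and 1 of ZFP (ZFPM2), and no ZSCAN gene was among the hosts. The 24 pigs were healthy Meishan animals on 1 standard diet, with 1 spleen library from each and 3 pigs at each of 8 ages. The first 4 ages were 1d, 7d, 14d and 21d, and the later 4 were 28d, 35d, 120d and 180d. The study used 1d as the control of each later stage, so the 3 libraries of 1d are shared by all 7 comparisons with it.

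Zinc fingers are small protein folds that hold a zinc ion. C2H2 fingers, in which a pair of cysteines and a pair of histidines hold the ion, often read DNA. They stand in many ZNF, ZBTB, ZKSCAN and ZFPM proteins, in some of them in long arrays. Many of these proteins carry a second domain at the start of the chain, such as a KRAB box that recruits the co-repressor TRIM28, or a BTB domain that pairs the proteins and recruits NCOR co-repressors. ZMYM proteins hold MYM fingers and bind partners in chromatin complexes such as LSD1-CoREST, and ZFYVE proteins hold FYVE fingers that bind the lipid PI3P on endosomes. In the spleen, members of these families act in lymphoid and myeloid cells, such as ZBTB46 of classical dendritic cells, known from mouse and human.

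The back-splice junctions below are those of 8 members that passed a test, of the other ZNF148 and ZNF207 circles, which share an end with them, and of the 4 short circles around a KRAB exon. Each is written 5′ to 3′ on the strand of the gene from the RefSeq Sscrofa11.1 genome, with the last 15 bases of the final exon in lower case and the first 15 bases of the first exon in capitals.
ZNF148 circRNA_11426: gcacttaatgttcctGATAGAGGGAGGAGA
ZNF148 circRNA_11430: gcacttaatgttcctGAATTGGATGGCGTA
ZNF148 circRNA_11431: gcacttaatgttcctGCAGTTATACTTAAG
ZNF148 circRNA_11433: agaagattcatactgGCAGTTATACTTAAG
ZNF207 circRNA_08309: gaggatatatcactgGTGCATAAAGAGACA
ZNF207 circRNA_08311: cccagtgcaggacagGTGCATAAAGAGACA
ZNF207 circRNA_08313: ctggtatgcctccagGTGCATAAAGAGACA
ZNF713 circRNA_23114: tggacactcattcagGAATCACTGACATTC
ZNF169 circRNA_23759: tggacctttattcagGCATTAATGGCCTTC
ZNF568 circRNA_30203: ggaggcattgtccagGAAAGAGTAACATTT
ZNF583 circRNA_30484: gacgcgcatgtcctgGATTTGGTGACCTTT
ZNFX1 circRNA_19169: cgtctgaattaccagGTGCTGCTAAATACC
ZNF292 circRNA_00780: tggataaggataaagACACTCCTTGAATAT
ZBTB11 circRNA_11760: ctatcattgtactcaTTGTGTAAAAAACAG
ZNF558 circRNA_21289: acctggcatcgcttgAGCCCTGACTGAGTG
The first 3 ZNF148 junctions have the same 15 lower-case bases because these circles share the final exon, and the 3 ZNF207 junctions have the same 15 capitals because those share the first exon. The last 2 ZNF148 circRNAs begin at the same exon. Every member was flanked by AG before its first exon and GT after its last, as were all of the other 2796 circRNAs with an exon chain. The study's detection used GT-AG signals, so these flanks were set in advance and are no finding. Over 1102 pairs of members from different genes, the most alike junctions were those of ZNF713 and ZNF169, with 22 of 30 bases identical.

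Of the 48 members, 21 shared a back-splice end with another circRNA of the table, and 8 host genes gave 23 of them. ZMYM4 gave 5, ZNF148 4, ZNF207 and ZNF568 3 each, and ZBTB41, ZMYM2, ZNF169 and ZNF236 2 each. The members lay on 12 chromosomes, with 12 of them on chromosome 6. ZNF566 circRNA_30200 also met the exon ends of an unnamed neighbouring gene, so its host is uncertain.

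The zinc finger circRNAs held the start of the reading frame more often than other circRNAs. The start codon of the matched RefSeq transcript lay within 22 of 47 members with a coding transcript (46.8%), against 464 of 2768 other circRNAs (16.8%), and a stop codon lay in 0 of 47, against 8 of 2768. Coding bases alone were rarer, and 24 of 47 members (51.1%) held nothing else, against 2277 of 2768 (82.3%). Single-exon circRNAs made up 6 of 48 (12.5%), against 109 of 2796 (3.9%). They were exon 2 of ZNF609 (874 nt), ZBTB10 (889 nt) and ZBTB44 (1073 nt), exon 3 of ZNF470 (1078 nt) and ZNF608 (256 nt), and exon 4 of ZNF148 (349 nt). ZNF609 encodes a nuclear protein that binds the cohesin loader. Its exon 2 circRNA has been reported to be translated in human and mouse muscle cells, and translation was not tested here. The median spliced length was 551.5 nt, against 430.5 nt in the rest. Members ran from 220 nt in ZNF713 circRNA_23114 to 2379 nt in circRNA_21780 of ZFYVE16, a gene that encodes an endosomal FYVE protein. The members' median GC content was 46.1%, against 43.2%. These are descriptions with no test, since circRNAs of 1 gene share exons.

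Most of the members held no whole C2H2 finger of their host protein. A C2H2 pattern stood in the host protein of 37 members, and 28 had hosts with 3 or more, but 20 of these 28 circRNAs held no whole finger. Of the other 2768 circRNAs with a coding transcript, 54 had a host with a pattern and 15 held a whole finger, so this was not particular to the members. Whole fingers lay in 9 members. ZNF236 circRNA_02423 held 8 of 29, ZBTB41 circRNA_04837 6 of 14 and circRNA_04839 5 of 14, and ZNF143 circRNA_36375 held 5 of 7. ZNF143 activates many housekeeping promoters. ZBTB11 circRNA_11760 held 4 of 12, ZNF148 circRNA_11433 2 of 4, ZNF236 circRNA_02425 2 of 29, ZBTB25 circRNA_33979 2 of 2 and ZNF451 circRNA_32853 1 of 9.

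In 7 circles a KRAB repressor box stood without a whole finger. A KRAB-box pattern was found in 6 of 1654 host proteins, all of them members (ZNF169, ZNF558, ZNF566, ZNF568, ZNF583 and ZNF713), and lay whole in 7 circRNAs. In each of the 7 it lay in an exon of 127 nt, and 0 of the 7 held a whole C2H2 finger. All of these hosts but ZNF568 had every C2H2 pattern in the last coding exon. The last exon of the transcript lay in 0 of 48 members, against 1 of 2796 other circRNAs. A last exon has no splice site after it, so detection by GT-AG signals largely set this in advance. In the hosts other than ZNF568, a circle without the last coding exon can hold no whole finger, so the lack of fingers there is no finding. ZNF169 circRNA_23759, ZNF568 circRNA_30203 and ZNF583 circRNA_30484 were 2-exon circles of 223 nt each, a 127-nt and a 96-nt exon, and ZNF713 circRNA_23114 had 127 nt and 93 nt. The other 3 were longer, with 296 nt in ZNF566 circRNA_30200, 345 nt in ZNF558 circRNA_21289 and 760 nt over 5 exons in ZNF568 circRNA_30205. The pattern does not find every KRAB box, since it was absent from the protein of ZKSCAN1, a gene named for its KRAB and SCAN domains. The 223-nt circles are paralogs, but their sequences were only 65.0% to 66.4% identical over their length. ZNF169 circRNA_23760 held the same 127-nt and 96-nt exons with a further exon of 91 nt, in another transcript whose protein lacks the pattern. ZNF568 circRNA_30206 lay upstream of the KRAB exon.

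**Figure D1:**
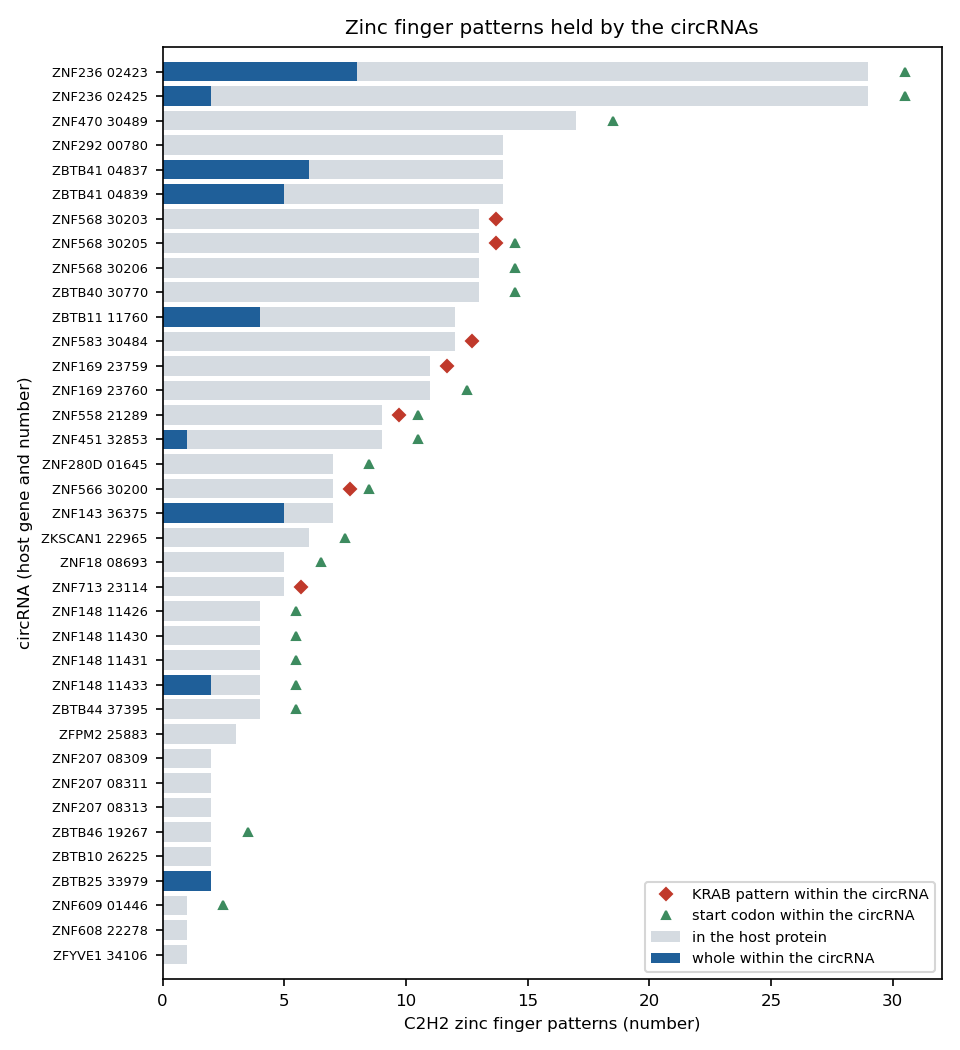
C2H2 zinc finger patterns (x axis, number) in the host protein (grey bars) and whole within the circRNA (blue bars) for the 37 members whose host protein has a pattern (y axis). Diamonds mark the 7 circRNAs that hold a KRAB pattern and triangles those that hold the start codon, and 28 of the 37 rows have no blue bar.

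Levels are given as normalised counts, the back-splice counts scaled by TMM factors to a common library size. The median of the members' means over 24 libraries was 6.42, against 6.88 for all 3000, and 17 members had a mean of at least 10 (35.4%), against 1000 of 3000. Only 16 of the 48 had reads in all 24 libraries. ZNF292 circRNA_00780, of exons 3 to 5 of a large C2H2 transcription factor gene, was the most abundant, with a mean of 69.4 (from 35.8 to 100.3) and rank 61 of 3000. ZNFX1 circRNA_19169 followed with 32.5 (rank 188). ZMYM4 circRNA_31068 (29.8), ZMYM4 circRNA_31057 (27.6) and ZNF148 circRNA_11426 (27.3) came next. The other 5 of the 10 most abundant were ZNF207 circRNA_08311 (20.6), ZBTB25 circRNA_33979 (19.1), ZMYM5 circRNA_05973 (18.1), ZNF609 circRNA_01446 (17.9) and ZKSCAN1 circRNA_22965 (14.5). ZKSCAN1 is a gene whose exon 2 to 3 circle is well known in human liver and brain, and the same exons, 2 to 3, formed the pig circle. The 5 lowest means were those of ZNF713 circRNA_23114 (3.12), ZNF236 circRNA_02423 (3.48), ZNF608 circRNA_22278 (3.80), ZNF532 circRNA_02525 (3.83) and ZNF568 circRNA_30205 (3.99). The members with the most libraries at 0, each with 6 of 24, were ZNF713 circRNA_23114, ZNF608 circRNA_22278, ZNF568 circRNA_30203, ZNF583 circRNA_30484 and ZNF148 circRNA_11431.

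**Figure D2:**
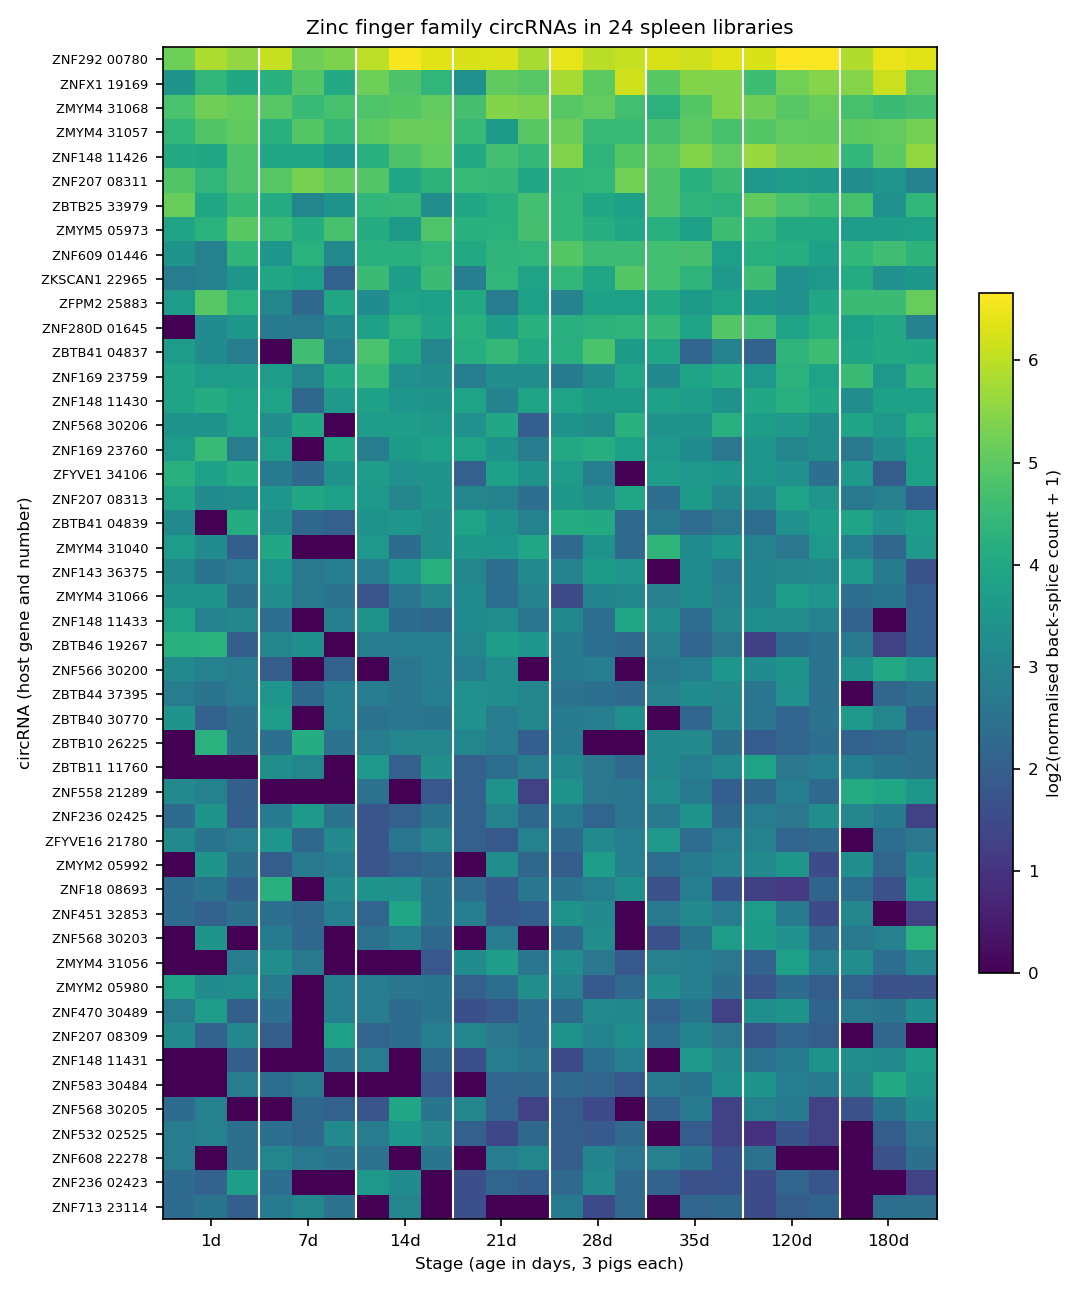
Normalised back-splice counts of the 48 members (y axis, ordered by mean) in the 24 libraries (x axis, 3 pigs per stage), as colour on a log2(count + 1) scale. ZNF292 circRNA_00780 is the brightest row, and dark cells are libraries at 0.

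As a group the members took a share of the back-splice reads that dipped at 7d and at 21d. All 3 libraries of each of these stages lay below those of 1d. The members took between 1.24% ± 0.0940 at 7d and 1.51% ± 0.0731 at 28d of the table's reads (SD, n = 3 pigs per stage). Their share was 1.29% ± 0.0824 at 21d and 1.39% ± 0.0736 at 180d, against 1.47% ± 0.0420 at 1d. Scaled to clean reads as RPM, by the study's read statistics, they had 2.69 ± 0.426 at 1d, 4.35 ± 0.395 in pigs of 14d and 6.69 ± 1.43 in pigs of 35d. The RPM reached 10.7 ± 1.26 in pigs of 120d and was 6.54 ± 1.47 in those of 180d. Between 40 and 45 members had reads in each pig of 1d, and 47 or 48 in each pig of 120d. Library totals ran from 16273 to 87867 back-splice reads and were lowest at 1d and highest at 120d, whereas clean reads ran from 98.45 to 115.29 M. The TMM values below therefore compare each circRNA with the other circRNAs, and the median log2 fold change of all 3000 for 120d against 1d was 0.26 with TMM and 1.99 with clean reads as the depth.

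Few zinc finger circRNAs passed the test at any single stage, and those that did came from 28d on. The test was edgeR's quasi-likelihood test over all 3000, with Benjamini-Hochberg adjusted p under 0.05 and at least a 2-fold change. Against 1d it called 0 of the 48 at 7d (0% of all 3000 were called), 0 at 14d (0.0667%) and 0 at 21d (0.933%). The members with an unadjusted p under 0.05 were 4, 5 and 3 at these stages, beside 284, 257 and 325 of all 3000. DESeq2 called 0 members at each. Pigs of 28d gave 1 call (1.57% of all), and pigs of 35d gave 1 (2.17%). Pigs of 120d gave 3 calls (6.1%), and pigs of 180d gave 3 (9.3%). At 180d against 120d 0 were called (0%), with 4 under an unadjusted 0.05, beside 145 of all 3000, and 0 by DESeq2. The median log2 fold change of the members was 0.10 at 120d, against 0.26 for all circRNAs, and -0.07 at 180d, against 0.20. The 3 libraries of 180d lay all above those of 1d for 8 members (17.9% of all circRNAs) and all below for 10 (11.5%). In these TMM fits the members' share of calls lay close to that of all circRNAs. The counts moved with the processing. DESeq2 called 4 members at 120d and 7 at 180d, and table totals gave 6 at 180d, beside 256 of all 3000. Clean reads as the depth gave 31 at 120d and 17 at 180d, beside 1972 and 1009 of all 3000.

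Over all 24 libraries, 7 members changed with age (16.5% of all 3000 were called), 5 up and 2 down. The slope is the log2 change per doubling of age, and its median was 0.01 for the members and 0.03 for all circRNAs. ZNF583 circRNA_30484, ZNF148 circRNA_11431, ZNFX1 circRNA_19169, ZNF148 circRNA_11426 and ZNF292 circRNA_00780 rose, and ZBTB46 circRNA_19267 and ZNF207 circRNA_08311 fell. A difference among the 8 stages of any shape was called for 5 members (8.97%), namely ZNFX1, ZNF207 circRNA_08311, ZNF148 circRNA_11426, ZNF292 and ZNF558 circRNA_21289. With clean reads as the depth the trend calls split into 31 up and 0 down, beside 1943 of all 3000 called. With table totals they split into 5 up and 4 down, beside 486 of all 3000. Without the 7 libraries with under 0.96 valid bases, which leaves 1 pig each at 35d, 120d and 180d, edgeR called 0 members in the trend. On counts thinned to equal depth, which hold fewer reads, 8 of 20 calls of members over all tests held and 12 did not. Leaving out single libraries, as given below for each call, cannot show such a dependence on depth or valid bases. In bulk tissue, fewer cells of a type and less RNA per cell cannot be told apart.

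**Figure D3:**
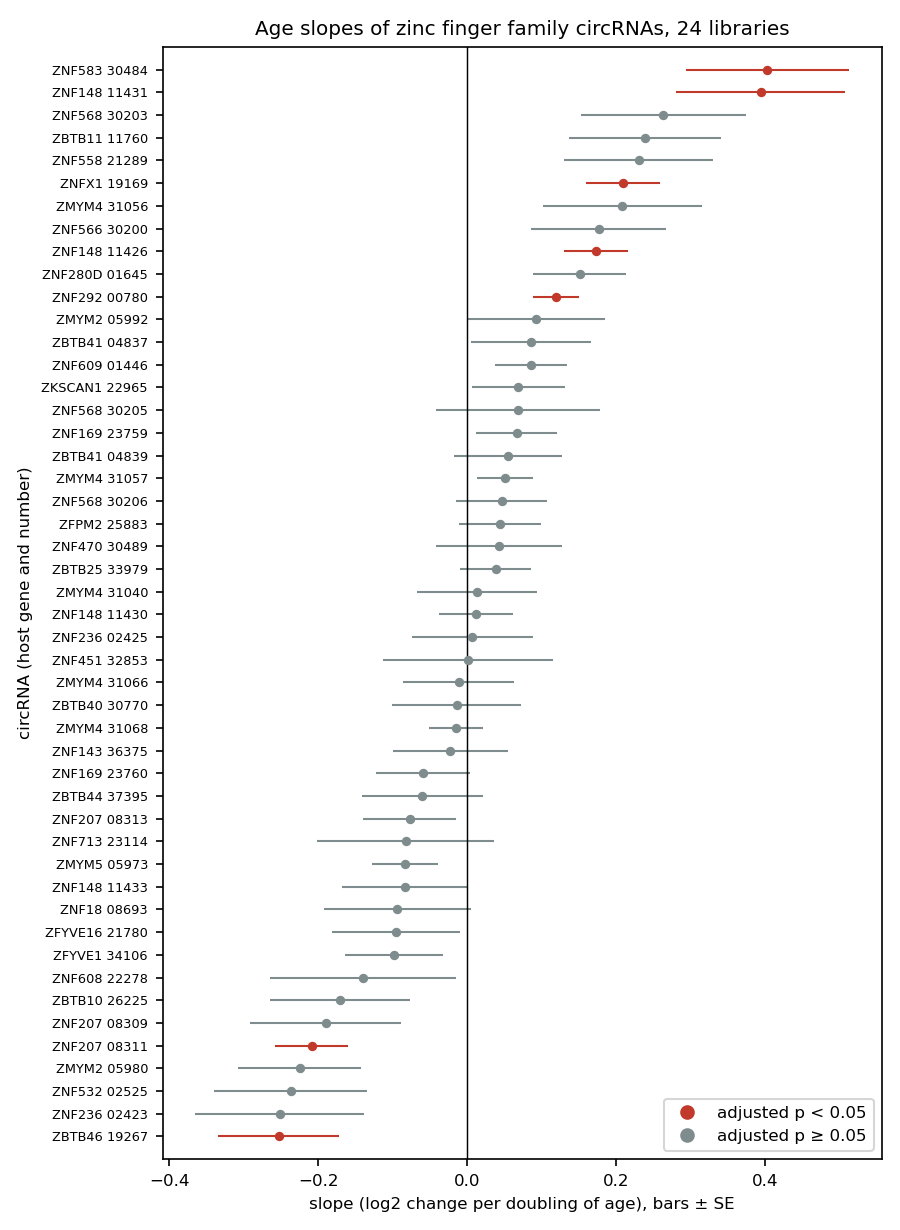
Slopes with age (x axis, log2 change per doubling of age, bars ± SE) of the 48 members (y axis) over 24 libraries. The 7 in red passed an adjusted p of 0.05, and their slopes run from -0.25 (ZBTB46) to 0.40 (ZNF583).

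ZNFX1 circRNA_19169 rose with age and was higher at 28d and 180d. ZNFX1 is an interferon-induced helicase with NFX1-type fingers that senses viral double-stranded RNA, known from human and mouse, and the circle is made of exons 11 to 12 (257 nt, chr17:50931699-50933570, minus strand). It had 54.8, 30.7 and 71.1 normalised counts in pigs of 28d and 42.7, 69.0 and 33.8 in those of 180d, against 9.95, 19.8 and 15.1 in those of 1d. Every library of both later stages lay above all 3 of 1d. The log2 fold change was 1.76 at 28d (SE 0.40, adjusted p = 0.00823 from edgeR) and 1.68 at 180d (SE 0.39, adjusted p = 0.0033). In between it had 30.3, 41.9 and 41.6 in pigs of 35d and 23.1, 37.1 and 43.1 in those of 120d, also all above 1d, with adjusted p = 0.0614 and 0.0589 from edgeR. The slope was 0.21 (SE 0.05, adjusted p = 0.00243). The slope and the 180d value kept their calls without any 1 library, and the call at 28d ended without 1d replicate 1 (adjusted p = 0.0778) or 28d replicate 3 (0.0526).

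ZNF292 circRNA_00780 also rose with age, by a smaller factor and with tighter values. It lies on chr1:55666252-55669095, plus strand. It had 76.3, 100.3 and 96.9 normalised counts in pigs of 120d and 57.6, 86.2 and 81.7 in those of 180d, against 35.8, 56.0 and 46.7 in those of 1d. Pigs of 7d had 66.0, 36.5 and 39.9, and pigs of 14d had 62.7, 95.1 and 81.0. The libraries of 14d, 120d and 180d lay above those of 1d, while those of 7d overlapped them. The slope was 0.12 (SE 0.03, adjusted p = 0.00391 from edgeR), a call kept without any 1 library. At 120d the log2 fold change of 0.97 (SE 0.24, adjusted p = 0.00734) was below the 2-fold limit. The difference among stages (adjusted p = 0.0241) was lost with DESeq2 (0.0812) and without any of 5 single libraries (1d replicate 1, 7d replicates 2 and 3, 120d replicates 2 and 3; at most 0.0863).

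ZNF148 gave 4 circRNAs whose slopes with age differed in the test within hosts, a call that several alternatives ended. The gene encodes ZBP-89, a C2H2 factor that binds GC-rich promoters, and its circles lie between chr13:134998506 and 135062178, plus strand. circRNA_11426 holds exons 2 to 4, circRNA_11430 exons 3 to 4, circRNA_11431 exon 4 alone and circRNA_11433 exons 4 to 7. All 4 hold the start codon, which lies in the shared exon 4. circRNA_11426 had 48.5, 38.3 and 38.8 normalised counts at 120d, against 15.9, 14.8 and 27.1 at 1d, and the stages did not overlap. Its log2 fold change there was 1.09 (SE 0.34, adjusted p = 0.0366 from edgeR), and its slope was 0.17 (SE 0.04, adjusted p = 0.00359). The call at 120d ended with DESeq2 (log2 fold change 0.95, adjusted p = 0.106) and without 1d replicate 1 or 2 or any library of 120d (0.054 to 0.17), whereas the slope kept its call without any 1 library. At 180d it had 20.3, 30.9 and 47.2, which overlapped 1d.

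The single-exon circle circRNA_11431 rose with age, and circRNA_11433 passed no test of its own. circRNA_11431 had 8, 11 and 16 reads at 180d, against 0, 0 and 2 at 1d, and its slope was 0.39 (SE 0.11, adjusted p = 0.0108 from edgeR). A listed 0 can be a single read, and library totals were lowest at 1d, so the size of this rise is uncertain. circRNA_11433, which starts at the same exon, had 3, 0 and 4 reads at 180d, against 7, 4 and 5 at 1d, with a slope of -0.08 (SE 0.08, adjusted p = 0.544). circRNA_11430 had a slope of 0.01 (SE 0.05). As a share of the ZNF148 reads of a stage, circRNA_11431 made up 16.7% of 210 at 180d (exact 95% interval 11.9 to 22.4, counting error only), against 2.53% of 79 at 1d (0.308 to 8.85). The share of circRNA_11433 was 3.33% at 180d (1.35 to 6.75), against 20.3% at 1d (12 to 30.8). The test of unequal slopes within a host gave an adjusted p of 0.0297 for ZNF148 over 613 hosts with at least 2 circRNAs (edgeR diffSpliceDGE). It called 1 of the 8 member hosts, beside 2.94% of all 613. Relative to the host, the slope was 0.20 for circRNA_11431 and -0.14 for circRNA_11433, here in natural-log units per doubling of age and not in log2. This call ended without any of 7 single libraries (1d replicates 1 and 2, 7d replicate 1, 120d replicate 3 or any library of 180d; adjusted p up to 0.149). It was also lost with clean reads as the depth (0.244), after filterByExpr (0.0914) and without the libraries of low valid-base share (0.849).

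**Figure D4:**
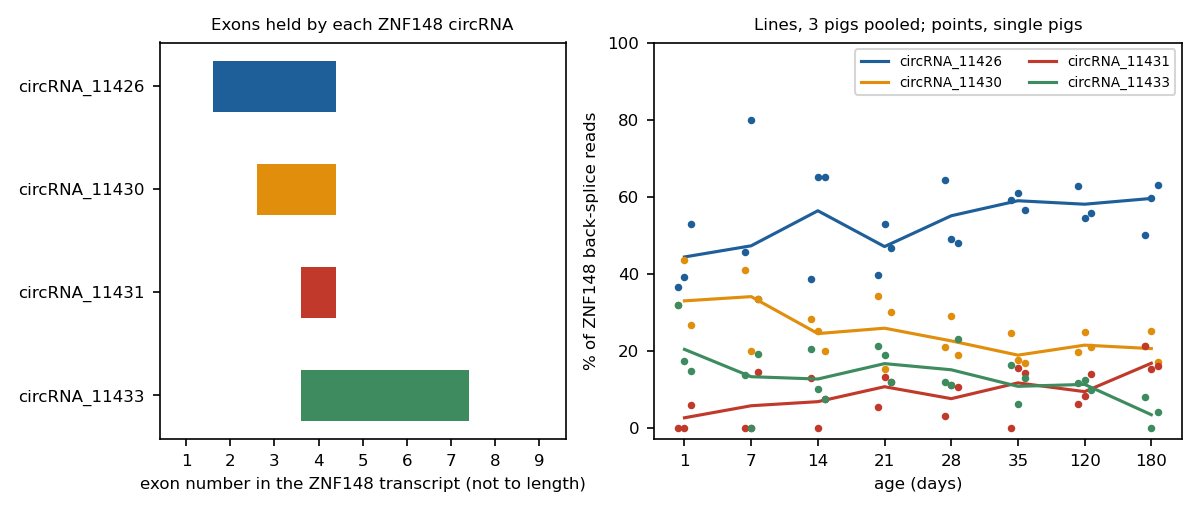
The left panel shows the exons (x axis, exon number) held by each ZNF148 circRNA (y axis), and the right panel its share of ZNF148 back-splice reads (y axis, %) by age (x axis, days), with lines for 3 pigs pooled and points for single pigs. circRNA_11431 takes 16.7% at 180d, against 2.53% at 1d, and circRNA_11433 3.33%, against 20.3%.

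In the other 7 hosts with several circRNAs no difference in slope was called, with an unadjusted p under 0.05 for ZMYM2 (0.00809, adjusted p = 0.115 from edgeR) and ZNF236 (0.0488, adjusted 0.263). ZMYM2, a partner of the LSD1-CoREST complex, gave circRNA_05980 of exons 3 to 6, with the start codon, and circRNA_05992 of exons 16 to 17. circRNA_05980 had 3.202, 2.16 and 2.25 normalised counts at 180d, against 13.9, 8.23 and 9.04 at 1d, with an adjusted p of 0.102 from edgeR. Its slope was -0.23 (SE 0.08, adjusted p = 0.0514). circRNA_05992 had 8.54, 3.59 and 8.25 at 180d, against 0, 9.88 and 4.52 at 1d, which overlapped. In ZNF236, which encodes a long array of fingers, circRNA_02423 had 0, 0 and 1.5 at 180d, against 3.98, 3.29 and 12.1 at 1d (adjusted p = 0.0629 from edgeR).

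ZNF207 circRNA_08311 fell late. ZNF207 encodes BuGZ, which brings the checkpoint protein BUB3 to the kinetochores of dividing cells, and its 3 circles all begin at exon 3 and end at exon 7, 8 or 10. circRNA_08311, of exons 3 to 8 (660 nt, chr12:42589975-42596350, minus strand), had 10.8, 11.6 and 11.14 normalised counts in pigs of 120d and 8.54, 10.1 and 6.75 in those of 180d, against 27.9, 19.8 and 27.1 in those of 1d. Every late library lay below all 3 of 1d. The log2 fold change was -1.15 at 120d (SE 0.37, adjusted p = 0.0432 from edgeR) and -1.54 at 180d (SE 0.40, adjusted p = 0.00677), and the slope was -0.21 (SE 0.05, adjusted p = 0.00164). It was highest at 7d, with 29.3, 38.3 and 31.9. The call at 120d ended without any 1 of its 6 libraries (adjusted p from 0.0558 to 0.143), and those at 180d and of the slope held without any.

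The fall of ZNF207 is relative to other circRNAs. With clean reads as the depth its slope was 0.02 (adjusted p = 0.769 from edgeR) and its 120d value 0.61 (0.18), both of the opposite sign, and its 180d value was -0.44 (0.442). The related circles did not pass the test. circRNA_08313 of exons 3 to 7 had 5.34, 6.47 and 3.0 at 180d, against 13.9, 8.23 and 9.04 at 1d (adjusted p = 0.284), and circRNA_08309 of exons 3 to 10 had a slope of -0.19 (SE 0.10, adjusted p = 0.195). Host genes of cell division moved in the same direction. The summed normalised count of 28 circRNAs from 12 of 30 listed proliferation genes was 115 to 141 at 180d, against 339 to 360.5 at 1d, and was highest at 7d (503 to 535). Its part in the ZNF207 result was not tested.

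**Figure D5:**
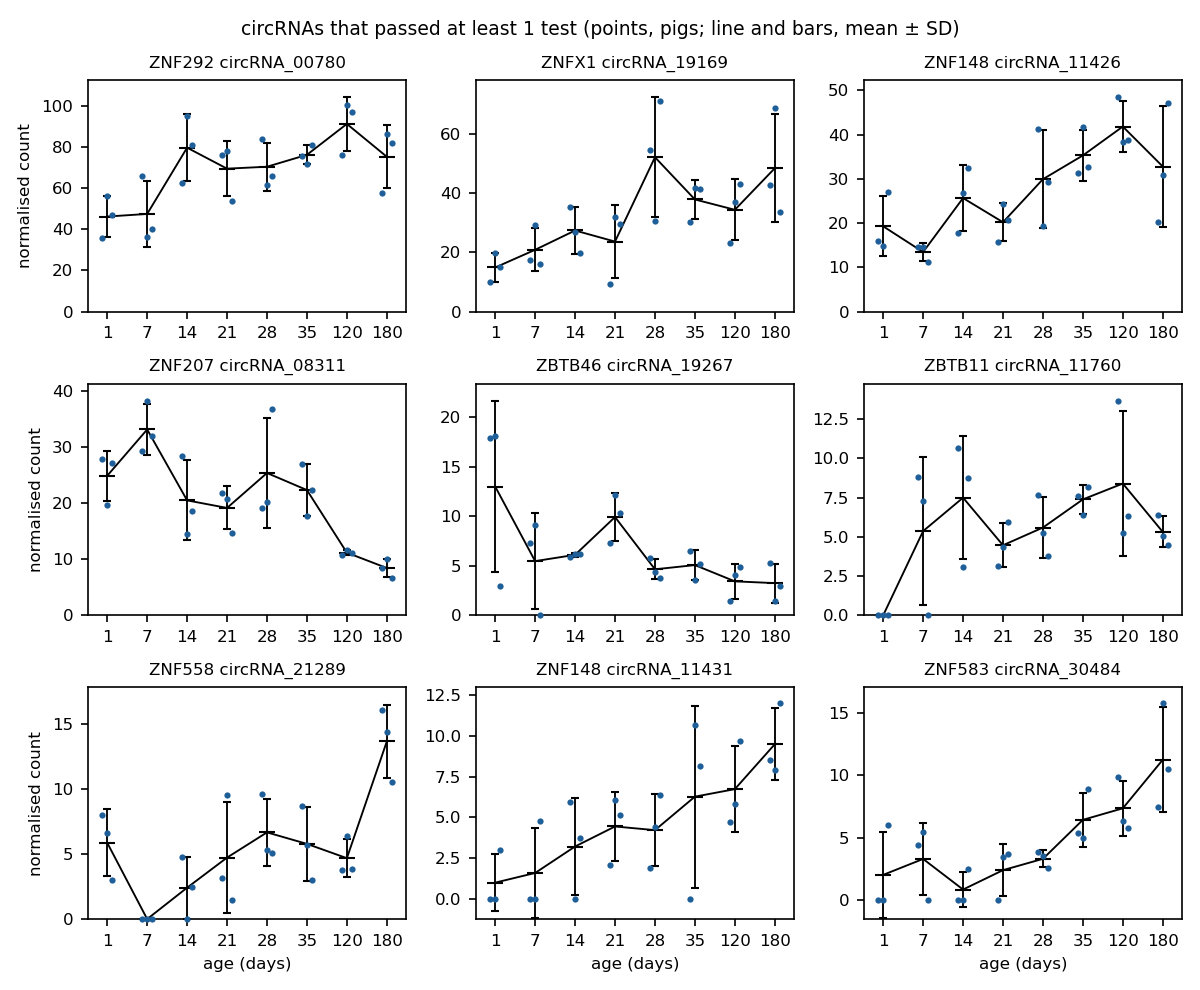
Normalised counts (y axis) by age (x axis, days) of the 9 members that passed at least 1 test; points are pigs, and lines and bars are means ± SD over 3 pigs. ZNFX1 lies at 33.8 to 69.0 at 180d, above 9.95 to 19.8 at 1d, and ZNF207 circRNA_08311 at 6.75 to 10.1, below 19.8 to 27.9.

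Of the 8 circRNAs of BTB zinc finger genes, 1 was higher at late stages and 1 fell with age. ZBTB11, a nuclear regulator with an array of C2H2 fingers, gave circRNA_11760 of exons 6 to 8 (509 nt), which was listed at 0 in all 3 libraries of 1d. Pigs of 35d had 7, 9 and 11 reads, pigs of 120d had 29, 9 and 13, and pigs of 180d had 6, 7 and 6. The edgeR test against these zeros gave adjusted p = 0.0303 for 35d, 0.00899 for 120d and 0.0291 for 180d. Because counts of 1 are not in the table, a 0 can be a single read, and the upper 95% limit of the expected reads over the 3 libraries of 1d is then 7. Set against that floor, which the test did not use, the level of 35d was at least 1.87-fold higher, that of 120d at least 2.13-fold and that of 180d at least 1.35-fold. The bounds for 35d and 180d are under the 2-fold limit of a call. The call at 120d ended without 120d replicate 1 (0.0503). The 35d call ended without any library of 1d or without its own replicate 2 or 3 (0.0513 to 0.105), and the 180d call without any library of 1d or its own replicate 1 or 2 (at most 0.0831). At 7d it already had 8.79, 7.29 and 0 normalised counts.

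ZBTB46 circRNA_19267, of exons 2 to 3 with the start codon (1252 nt), fell with age. It had 5.34, 1.44 and 3.0 normalised counts at 180d, against 17.9, 18.1 and 3.01 at 1d, where 1 of the pigs was as low as the late ones. The slope was -0.25 (SE 0.08, adjusted p = 0.0231 from edgeR), and leaving out 1d replicate 1 (0.0909), the second pig of 1d (0.108) or that of 180d (0.0512) ended the call. With clean reads as the depth the slope was -0.04. ZBTB25 circRNA_33979, of a repressor of NFAT targets in T cells, ran from 7.29 to 33.8 with a slope of 0.04 (SE 0.05), and the paired circles of ZBTB41 had slopes of 0.09 (circRNA_04837, SE 0.08) and 0.06 (circRNA_04839, SE 0.07). The single-exon circles of ZBTB10 and ZBTB44 and ZBTB40 circRNA_30770 had means of 5.53, 5.98 and 5.82 and passed no test.

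Among the KRAB circles, ZNF583 circRNA_30484 rose with age and ZNF558 circRNA_21289 differed among stages. These genes encode KRAB repressors, many of which silence transposable elements in mammals. The ZNF583 circle had 7.47, 15.8 and 10.5 normalised counts at 180d, against 0, 0 and 6.03 at 1d, and 2.49 was its highest value at 14d. The slope of 0.40 (SE 0.11, adjusted p = 0.00705 from edgeR) kept its call without any 1 library. However, this circle had 0, 0 and 4 reads at 1d and 0, 0 and 2 at 14d. A listed 0 can be a single read, and library totals were lowest at 1d, so the size of the rise is uncertain. The ZNF558 circle was listed at 0 in all 3 libraries of 7d and had 16.0, 14.4 and 10.5 at 180d, against 7.96, 6.58 and 3.01 at 1d. All 3 values of 180d lay above those of every other library. The difference among stages had an adjusted p of 0.0258 from edgeR and was lost without any library of 7d or without 180d replicate 1 or 2 (at most 0.0946).

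The other KRAB circles did not pass. ZNF568 circRNA_30203, the 223-nt circle, had 5.34, 6.47 and 18.0 at 180d, against 0, 9.88 and 0 at 1d, and a slope of 0.26 (SE 0.11, adjusted p = 0.0933 from edgeR). ZNF568 circRNA_30206, its upstream circle, was the more abundant (mean 11.09, against 5.25) with a slope of 0.05 (SE 0.06). ZNF566 circRNA_30200 had 9.61, 15.1 and 11.2 at 180d, against 7.96, 6.58 and 6.03 at 1d, which do not overlap (slope 0.18, SE 0.09, adjusted p = 0.177). ZNF169 circRNA_23759 (mean 12.4) and circRNA_23760 (10.3) had slopes of 0.07 (SE 0.05) and -0.06 (SE 0.06). ZNF713 circRNA_23114 had a slope of -0.08 (SE 0.12).

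No ZMYM or ZFYVE circle was among the 9 members that passed a test, and ZMYM2 circRNA_05980, given above, came nearest. The 5 ZMYM4 circles came from 3 places in the gene, namely exons 3 to 5 (circRNA_31040), exons 18 to 19 or 22 (circRNA_31056 and circRNA_31057) and exons 24 to 26 or 28 (circRNA_31066 and circRNA_31068). In both pairs the longer circle was the more abundant, with means of 27.6 for circRNA_31057, against 5.24 for circRNA_31056, and 29.8 for circRNA_31068, against 6.55 for circRNA_31066. circRNA_31068 ran from 18.4 to 41.6 over the 24 libraries with a slope of -0.01 (SE 0.04), and circRNA_31057 had 0.05 (SE 0.04). ZMYM5 circRNA_05973 had 11.7, 12.2 and 12.8 at 180d, against 13.9, 18.1 and 30.1 at 1d, with a slope of -0.08 (SE 0.04, adjusted p = 0.196 from edgeR). ZFYVE1, which encodes a FYVE protein of autophagosome formation sites, and ZFYVE16 had slopes of -0.10 each (SE 0.07 and 0.09).

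Several further members had small p values that did not pass the adjusted threshold. ZNF280D circRNA_01645 had 20.6, 13.5 and 28.2 normalised counts at 35d, against 0, 8.23 and 10.6 at 1d (adjusted p = 0.0735 from edgeR), and every library from 14d to 120d lay above those of 1d. ZFPM2 circRNA_25883, of the GATA cofactor FOG2, had 22.4, 22.3 and 33.8 at 180d, against 10.4, 9.28 and 14.5 at 120d. These did not overlap, and the adjusted p was 0.513. Among lower values, the smallest p was that of ZNF558 for 7d (adjusted p = 0.227 from edgeR), ZFPM2 for 14d (0.676), ZNF713 for 21d (0.542), ZFYVE1 for 28d (0.331) and ZBTB46 for 35d (0.421).

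Other members varied without a call. ZKSCAN1 circRNA_22965 had 23.8, 19.15 and 11.15 normalised counts in pigs of 35d, against 5.97, 6.58 and 10.6 in those of 1d, which did not overlap (log2 fold change 1.17, SE 0.53, adjusted p = 0.292 from edgeR). ZNF609 circRNA_01446 was highest at 28d, with 28.8, 22.8 and 22.9, against 9.95, 6.58 and 19.6 at 1d, and its slope was 0.09 (SE 0.05, adjusted p = 0.232 from edgeR). ZNF532 circRNA_02525 had 0.942, 2.32 and 1.45 at 120d, against 5.97, 6.58 and 4.52 at 1d, which did not overlap either (log2 fold change -1.80, SE 0.94, adjusted p = 0.282 from edgeR). The slopes were -0.02 (SE 0.08) for ZNF143, 0.04 (SE 0.08) for ZNF470, -0.09 (SE 0.10) for ZNF18, which encodes a C2H2 protein, and -0.14 (SE 0.12) for ZNF608, a paralog of ZNF609. ZNF451, which encodes a SUMO ligase, was flat within a wide error (SE 0.11).

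Among host genes related to these families, the other C2H2 factors gave the most calls. Of 71 other C2H2 transcription factors listed, 12 gave 16 circRNAs, of which 1 rose and 4 fell with age (10.7% and 5.77% of all 3000), from BCL11A, GLIS3, PRDM4 and SP3. At 180d 2 of the 16, both from GLIS3, were lower than at 1d, where 9.3% of all circRNAs were called. The KRAB co-repressor list gave 13 circRNAs from 7 of 21 genes and 0 trend calls, with a median slope of 0.09. The BTB co-repressor list gave 16 from 3 of 10 genes with 1 rise (NCOR1), and the LSD1-CoREST list gave 13 from 6 of 10 with 1 rise (PHF21A, a CoREST complex subunit). The list of FYVE and PI3P genes gave 26 from 14 of 34 with 1 fall (MTMR6, a PI3P phosphatase). Over all 3000, 16.5% were called in this trend by edgeR.

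Markers of spleen cells can be checked here only as circRNA hosts. B cell genes gave 7 circRNAs from 4 of 23 listed genes, including BANK1, CD22 and RALGPS2, and their summed count was 89.99 to 130.1 at 180d, against 32.9 to 48.2 at 1d. T and NK cell genes gave 3 from 3 of 29 (66.7 to 71.9, against 18.1 to 31.9), and erythroid genes gave 8 from 2 of 23 (45.9 to 60.7, against 108.5 to 143.3). Macrophage genes and stromal genes gave 1 circRNA each, and 0 of 15 megakaryocyte genes were hosts. The B cell, T and NK cell and erythroid sums did not overlap between 180d and 1d, and their part in the members' slopes was not tested.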

How the data were processed

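The deposited table holds raw back-splice read counts, made by the authors, of 3000 circRNAs in 24 spleen libraries. By the study's methods reads were mapped to Sscrofa11.1 with TopHat2, BWA alignments gave the input in which CIRI2 detected circRNAs, and find_circ served to describe their type and length; the submitters' processing notes also name FastQC and cutadapt. The labels name a ribosomal RNA depletion kit and the methods another with RNase R digestion, so which enrichment was used is unsettled here. No value is 1, the smallest count above 0 is 2, and 8.72% of values are 0; how the 3000 were chosen is not given in the sources used here. Totals were 16273 to 87867, so counting error is largest at 1d. Intervals and floors cover counting error only.

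Counts were tested with edgeR 4.0.16 in R 4.3.3 (TMM, robust quasi-likelihood fit over 24 libraries, Benjamini-Hochberg over 3000, two-sided, no filter on low counts). Adjusted p values in the text are edgeR's unless named otherwise. Those of the stage tests rest on the spread between 3 pigs per stage, pooled over all stages. Those of the slopes and of unequal slopes within a host rest on the scatter of the 24 libraries about a fitted line. That scatter includes departures of the stage means from the line. DESeq2 1.42.0, other scalings, filterByExpr, thinned counts, a replicate block, a minimum share of valid bases and leaving out single libraries were alternatives. The fit was tested on simulated data. Normalised counts are counts divided by the TMM effective library size over its geometric mean.

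Hosts and sequences came from RefSeq Sscrofa11.1. The reading frame was taken from 1 matched transcript per circRNA, curated before predicted and then the longest. A C2H2 pattern was Cys, 2 to 4 residues, Cys, 12 residues, His, 3 to 5 residues, His, and a KRAB pattern was Asp-Val, 3 residues, Phe or Leu, 3 residues, Glu-Trp. Named were circRNAs that passed a test, the 10 most abundant, hosts with at least 2 members, the smallest p in each direction and the extremes of length and of libraries at 0; others outside this rule were chosen after their values were seen. The members and lists were chosen with earlier results of these data known.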

Additional observations from a re-analysis of the deposited data

How the results depend on the processing

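With clean reads as the depth the members called against 1d numbered 2 at 14d, 9 for 21d, 8 for 28d, 13 for 35d, 31 for 120d and 17 for 180d, with 31 for the slope, 27 for any stage difference and 0 for the isoform difference. Of all 3000, clean reads called 85, 628, 431, 920, 1972 and 1009 at these stages, and 1943 for the slope. With this depth ZNF207 circRNA_08311 changed sign, to 0.61 at 120d and 0.0198 for its slope. After filterByExpr (1848 circRNAs tested) the counts were 0 for 35d, 1 for 120d, 3 for any stage difference and 0 for isoforms. Without the 7 libraries with a valid-base share under 0.96 they were 0 for 35d, 1 for 120d, 0 for 180d, 0 for the slope, 1 for any stage difference and 0 for isoforms, with fewer samples. Thinned to equal depth they were 0 for 35d, 1 for 120d, 3 for the slope and 2 for any stage difference. Table totals gave 6 at 180d, and DESeq2 gave 7 at 180d and 11 for the slope. Leaving out single libraries gave 0 to 1 for 28d, 0 to 1 for 35d, 1 to 4 for 120d, 2 to 5 for 180d, 6 to 8 for the slope, 3 to 7 for any stage difference and 0 to 1 for isoforms. Of 360 such refits of the calls named, the ZNF148 isoform call included, 316 kept the call and 44 lost it.

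Deviations of same-numbered pigs were weakly correlated (1 of 84 pairs with r over 0.1, mean r 0.00624, against -0.0031 for different numbers). In 13 of 24 libraries the best-correlated library of another stage nevertheless had the same number, although most partners had another number. A fit with the replicate number as a block gave 2 calls at 35d in place of 1 and 4 at 120d in place of 3, and ended no call of a named member. Low depth at 1d limits members with few reads there.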
